A study of Mus musculus with 16 samples.

Results

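The nuclear-encoded subunit genes of oxidative phosphorylation were followed across 16 RNA-seq libraries from mouse bone marrow. They were chosen by symbol among the protein-coding gene rows: Ndufa, Ndufb, Ndufc, Ndufs and Ndufv genes for complex I, Sdha to Sdhd for complex II, Uqcr genes for complex III, Cox4 to Cox8 genes for complex IV and Atp5 genes for complex V. This gave 84 of 30141 gene rows, with 36 genes in complex I, 4 in complex II, 8 in complex III, 19 in complex IV and 17 in complex V. Cytochrome c1 (Cyc1), a catalytic subunit of complex III, does not carry such a symbol and is not among them. Ndufa4 and its relative Ndufa4l2 were counted with complex IV, to which the Ndufa4 protein belongs. The symbol rule also met 8 Ndufaf assembly factors and 13 rows of other biotypes, which were left out, as was Cox8c, a testis isoform with 1 count in all libraries together. That last exclusion was set at no more than 3 counts in any library after the counts were seen, and Cox7b2 stayed in because 1 library held 4 counts.

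The libraries came from sorted LSK cells, the lineage-negative, Sca-1 positive, Kit positive fraction of marrow that holds hematopoietic stem cells and early progenitors. In 9 libraries, labelled R882H, the cells carried mouse wild-type DNMT3A and a human DNMT3A R882H sequence, which was introduced behind a Lox-Stop-Lox cassette into embryonic stem cells of the line JM8.N4, derived from C57BL/6N, and switched on by Mx1-Cre, a Cre driven by an interferon-inducible promoter. The other 7, labelled WT, carried mouse DNMT3A +/+. Donor mice with and without the Cre had received poly(I:C), at 15 µg per g body weight, to remove the stop cassette; the labels also give a second poly(I:C) schedule, without saying which libraries it applies to. Donor marrow was taken 4 weeks after poly(I:C), mixed in equal parts with CD45.1 wild-type competitor marrow and transplanted into CD45.1 recipients. Treatment was azacitidine, a cytidine analogue that traps DNA methyltransferases, at 2.5 mg/kg, or 0.9% NaCl as vehicle, for 2 weeks on a cycle of 5 days on and 2 days off. There were 4 libraries of WT NaCl, 3 of WT AZA, 4 of R882H NaCl and 5 of R882H AZA, numbered from 1 in the labels. The labels used here give no age of the animals, do not tie Cre status to single libraries and do not say whether donor cells were separated from competitor and host cells in the sort.

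Oxidative phosphorylation is carried out in the inner mitochondrial membrane. Complexes I and II pass electrons from NADH and succinate to ubiquinone, complex III passes them to cytochrome c, complex IV passes them to oxygen, and complex V uses the resulting proton gradient to make ATP. Most subunits are encoded in the nucleus, translated in the cytosol and imported, while complexes I, III, IV and V each also need subunits encoded by mitochondrial DNA; complex II is encoded by the nucleus alone. Quiescent hematopoietic stem cells are known for a low reliance on oxidative phosphorylation, which rises as they enter cycle and differentiate.

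Each library held 35860445 to 56012766 counts over all rows, of which 2.97% to 10.1% fell on repeat rows. The subunit genes took 1.33% to 2.49% of the counts on genes. All 8 LSK markers examined were counted in every library, and their summed level ranged from 1574 to 4131 CPM (counts per gene scaled to the TMM-adjusted library size). The mouse Dnmt3a row, whose counts do not separate the mouse gene from a human cDNA, stood at 96.7 ± 9.84 CPM in WT NaCl (SD, n = 4), 105 ± 35.3 in WT AZA (SD, n = 3), 90.5 ± 19.6 in R882H NaCl (SD, n = 4) and 96.2 ± 4.54 in R882H AZA (SD, n = 5), so it does not check the genotype labels. R882H NaCl library 2 had 5831 CPM summed over 8 erythroid markers, against 162 to 1648 CPM in the other 15, and R882H NaCl library 1 had 101 CPM over 8 T and NK cell markers, against 2.79 to 14.3. Over 6 B and plasma cell markers the libraries ranged from 91.3 to 2778 CPM, and over 6 mature neutrophil markers from 1.81 to 492. WT AZA library 1 had the largest share of counts on repeat rows. In bulk RNA, fewer cells of a type and less RNA per cell cannot be told apart.

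The subunit genes were among the well expressed genes of these cells. The deposited FPKM values divide each count by feature length and library size and were the only scale used to compare levels between genes. The 81 genes that passed the filter on low counts had a median FPKM, averaged over the libraries, of 104, where all 18341 genes that passed had a median of 3.39. By complex, over all members, the median was 91.0 in complex I, 124 in complex II, 135 in complex III, 108 in complex IV and 101 in complex V. The medians of the complexes therefore lay within a narrow band, while single genes spread widely around them.

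**Figure D1:**
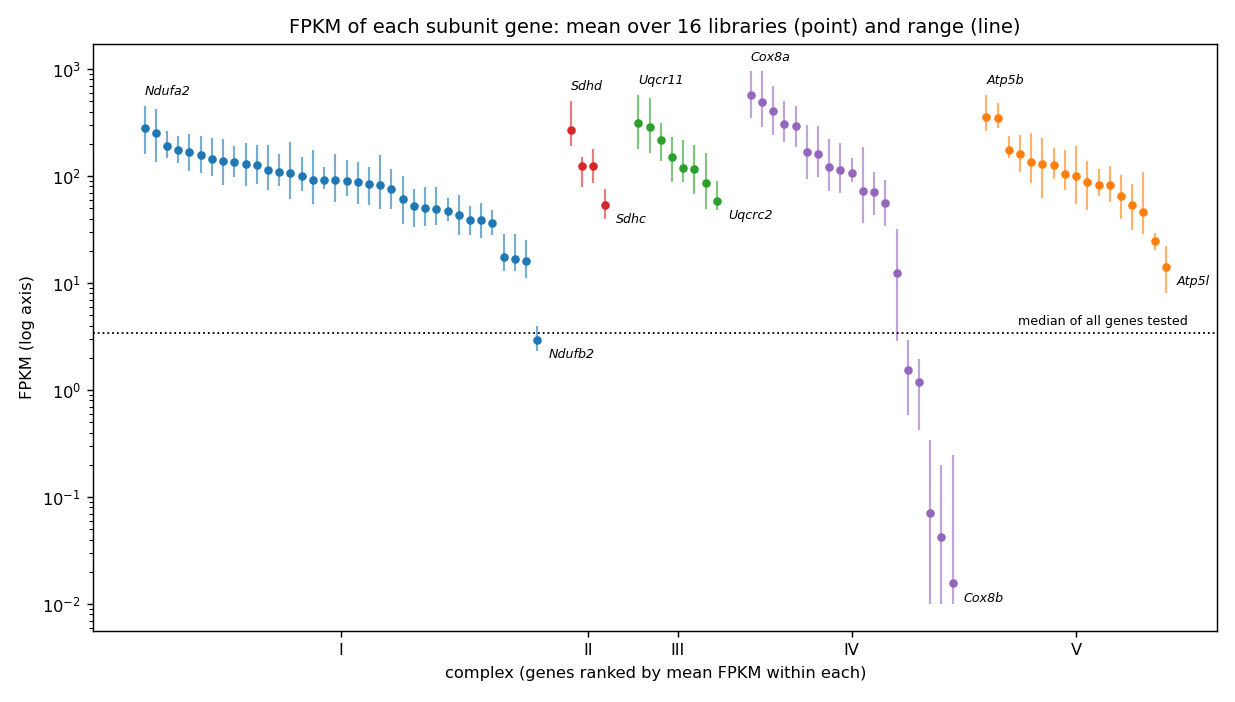
FPKM on a log axis for each of the 84 subunit genes, ranked within complex I to V, with the mean over 16 libraries as a point and the lowest to highest library as a line; ranges that reach 0 are drawn down to 0.01, and the dotted line is the median of all genes tested. Most genes sit between 10 and 600 FPKM, and 5 isoform genes of complex IV sit below the dotted line together with Ndufb2.

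Complex I takes electrons from NADH through a core that is conserved from bacteria and is surrounded by accessory subunits. Its highest gene was Ndufa2, an accessory subunit, with a mean of 279 ± 103 FPKM (SD, n = 16), followed by Ndufa1 at 251 ± 96.4. Among the core subunits, Ndufs8, which carries iron-sulfur clusters, had 193 ± 39.3 FPKM, and Ndufs1, the largest core subunit, had 17.0 ± 3.33. The lowest was Ndufb2 at 2.95 ± 0.590. Its feature is long, at 5628 bases, but its 11617 counts were also the fewest in complex I. FPKM of several genes is lowered by a feature length that joins all annotated exons: the feature of Ndufs1 spans 8086 bases where its principal transcript has 2661, and that of Atp5l spans 6443 where its principal transcript has 544.

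In complex II, succinate dehydrogenase, the membrane anchor Sdhd was highest at 268 ± 77.8 FPKM and the other anchor, Sdhc, lowest at 53.3 ± 11.5. The catalytic subunits Sdha, the flavoprotein, and Sdhb, the iron-sulfur protein, stood between them at 124 ± 21.1 and 124 ± 24.7. In complex III, cytochrome bc1, the small subunit Uqcr11 led at 313 ± 131 FPKM and the core protein Uqcrc2 was lowest at 58.6 ± 9.56. Complex V, the ATP synthase, was led by the catalytic subunit Atp5b at 361 ± 67.7 and its partner in the F1 head, Atp5a1, at 353 ± 45.7. Its lowest was the membrane subunit Atp5l at 14.1 ± 4.92.

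Complex IV, cytochrome c oxidase, held both the highest and the lowest members. Cox8a had 569 ± 192 FPKM, Cox6a1 495 ± 208, Cox6b1 409 ± 148, Ndufa4 307 ± 96.8 and Cox4i1 297 ± 97.8 (SD, n = 16 for each). At the other end, Cox8b, the heart and muscle form of Cox8, had 4 counts in all, all in 1 library. Cox7b2 had 16 counts in 7 libraries and Ndufa4l2, a hypoxia-responsive relative of Ndufa4, had 56 counts in 11. These 3 genes did not pass the filter on low counts and were not tested.

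Several subunits exist as pairs of genes, a broadly expressed form and a form known from muscle, lung or testis, and the broadly expressed form had most of the FPKM in these cells. Cox4i1 made up 99.6% of the FPKM of the Cox4 pair, with 99.3% to 99.8% in single libraries, the rest being the lung-enriched Cox4i2. Cox6a1 made up 97.5% against the muscle form Cox6a2, with 95.8% to 99.7% in single libraries. Cox6b2, known as a testis form, was the exception: it held 14.7% of its pair on average and 12.0% to 21% in single libraries, at 72.8 ± 38.8 FPKM. In the Cox7a family, Cox7a2 held 58.6%, the supercomplex-associated Cox7a2l 40.8% and the muscle form Cox7a1 0.581%. The c-ring of the ATP synthase is built from 1 mature protein made by 3 genes, and Atp5g3 held 55.0%, Atp5g2 26.3% and Atp5g1 18.6% of their summed FPKM. In counts the order of Atp5g2 and Atp5g1 was reversed. Atp5g1 had 159204 counts over a feature of 4912 bases, and Atp5g2 had 75554 over 1675 bases. By group, the share of Cox6b2 was 13% in WT NaCl, 16.6% in WT AZA, 15.1% in R882H NaCl and 14.4% in R882H AZA, and the share of Atp5g2 was 26.1%, 29.4%, 24.7% and 25.9% in the same order.

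Respiratory genes are known targets of nuclear respiratory factor 1 (NRF1), of ETS factors such as GABP and of YY1, and the promoters were read for a motif of each. RefSeq promoter windows of GRCm38.p6, from 250 bases before to 50 after a gene's start, were matched to 69 of the 84 genes. The NRF1 motif GCGCANGCG was found on either strand in 20 of the 69 genes, or 29.0%, against 7.03% of all 27025 genes with a window. The ETS motif CCGGAAGT was found in 5 genes, or 7.25% against 4.31%, and the YY1 motif AAGATGGCG in 7 genes, or 10.1% against 1.64%. The genes compared with were not limited to those expressed in these cells, and no share among expressed genes was taken. Of the motifs, 2 were shortened by 1 base after a first search. Whether the excess is particular to respiratory genes was not tested. In 3 of the 69 genes more than 1 of the 3 motifs was found, and no matches of different motifs shared bases. By complex, the NRF1 motif was in 8 of 32 genes of complex I, 2 of 3 of complex II, 2 of 5 of complex III, 1 of 14 of complex IV and 7 of 15 of complex V. To show the motif in place, the stretch around it is printed for the most abundant gene of each complex whose match lay wholly upstream of the annotated gene; no complex III gene met this. Each is given 5′ to 3′ on the gene's own strand in GRCm38.p6, with matches in capitals and 30 bases either side.
Ndufs5 (chr4:123718246-123718314, minus strand): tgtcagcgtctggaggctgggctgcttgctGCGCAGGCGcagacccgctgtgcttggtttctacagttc
Sdhd (chr9:50603890-50603958, minus strand): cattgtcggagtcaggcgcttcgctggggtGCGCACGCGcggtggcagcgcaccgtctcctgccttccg
Cox6a1 (chr5:115349037-115349150, minus strand): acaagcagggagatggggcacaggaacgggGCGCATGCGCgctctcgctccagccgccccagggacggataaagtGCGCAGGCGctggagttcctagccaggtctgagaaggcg
Atp5h (chr11:115420022-115420090, minus strand): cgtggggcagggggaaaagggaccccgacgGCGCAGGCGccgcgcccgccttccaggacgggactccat
The Cox6a1 stretch holds 3 matches, the first 2 on opposite strands and overlapping, and the others hold 1 each. The last match ends 89 bases before the RefSeq start in Ndufs5, 70 in Sdhd, 108 in Cox6a1 and 132 in Atp5h. For the difference between NaCl libraries by number that is described further on, the 20 genes with the NRF1 motif had a median of 0.99 on the log2 scale and the 47 tested genes without it 0.87.

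Between libraries, the summed CPM of the subunit genes spanned from 12725 to 27571. In WT NaCl the 4 libraries, in the order of their numbers, had 21327, 22293, 14196 and 14002 CPM. In R882H NaCl they had 21297, 27571, 12725 and 12985. In both groups the libraries numbered 1 and 2 were high and those numbered 3 and 4 low, with no overlap. The treated libraries did not divide by number in this way: WT AZA had 15708, 23019 and 16663 CPM, and R882H AZA had 13862, 17809, 15058, 15739 and 14431. Group means were 17955 ± 4470 in WT NaCl (SD, n = 4), 18463 ± 3974 in WT AZA (SD, n = 3), 18644 ± 7160 in R882H NaCl (SD, n = 4) and 15380 ± 1528 in R882H AZA (SD, n = 5). The spread within the NaCl groups was thus larger than any difference between group means.

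**Figure D2:**
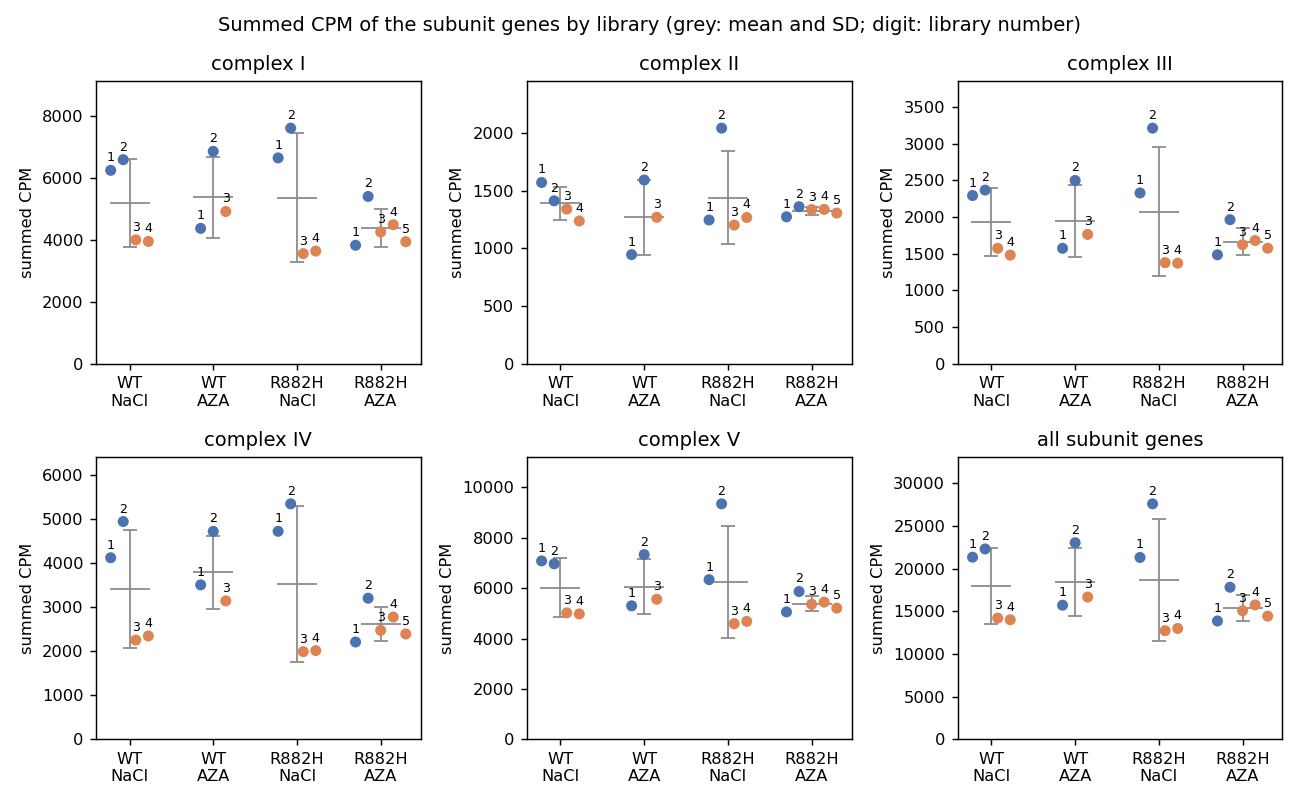
Summed CPM of the subunit genes of each complex and of all 84 genes, with 1 point per library (blue for libraries numbered 1 and 2, orange for 3 to 5, the digit giving the number) and the mean and SD of each of the 4 groups in grey. The NaCl libraries fall into a high and a low pair in every panel but complex II, where the highest library is R882H NaCl library 2 at 2042 CPM and the lowest WT AZA library 1 at 946.

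The library with the highest CPM was R882H NaCl library 2 for 58 of the 81 tested genes, WT AZA library 2 for 11, R882H NaCl library 1 for 7, WT NaCl library 2 for 4 and WT AZA library 1 for 1. The lowest was R882H NaCl library 3 for 37 and R882H NaCl library 4 for 26. Libraries of a single group, R882H NaCl, thus held the extremes in both directions for most genes. Relative to its mean, complex IV had the largest SD over the 16 libraries, 1155 on 3264 CPM, and complex II the smallest, 234 on 1359 CPM, although from lowest to highest library complex II (946 to 2042) spanned a wider ratio than complex V (4590 to 9344). Complex IV had 4127, 4949, 2257 and 2350 CPM in WT NaCl and 4727, 5351, 1994 and 2018 in R882H NaCl, whereas complex II had 1571, 1412, 1341 and 1238 in WT NaCl and 1246, 2042, 1202 and 1268 in R882H NaCl. The ratio of complex IV to complex II accordingly ran from 1.59 in R882H NaCl library 4 to 3.79 in R882H NaCl library 1.

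Single genes ranged from nearly flat to strongly variable over the 16 libraries. The smallest SD of log2 CPM in complexes II to V belonged to Sdha in complex II (0.25), Uqcrc2 in complex III (0.21), Cox7a2l in complex IV (0.26) and Atp5a1 in complex V (0.18). These are core or catalytic subunits except Cox7a2l. The largest in complexes I to V belonged to Ndufa1 (0.58), Sdhd (0.37), Uqcr11 (0.59), Cox6a2 (0.89) and Atp5k (0.64), which are small accessory, anchor or membrane subunits.

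The division of the NaCl libraries by number was noticed in the levels of these same genes, and no label explains the numbers. It is therefore given as a description with no p. Since these genes served to choose the division, their shares beside those of all genes are no test. The mean log2 CPM in the NaCl libraries numbered 1 and 2, over both genotypes, was compared with that in the libraries numbered 3 and 4. It was higher for 80 of the 81 genes, where 47.1% of all genes tested were higher, and the median difference was 0.97 on the log2 scale where that of all genes was −0.05. For 70 of the 81 genes all 4 libraries numbered 1 and 2 lay above all 4 numbered 3 and 4, which holds for 15.9% of all genes; for none did they all lie below, which holds for 15% of all genes. The median difference was 0.82 within WT and 1.11 within R882H, so it was also present within WT, where the erythroid markers had a median of 1.01 and the LSK markers −0.81.

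Cox6a1, the common form of subunit 6a, had 463, 587, 231 and 233 CPM in WT NaCl and 588, 731, 207 and 212 in R882H NaCl, a difference of 1.41. Uqcr11, a small subunit of complex III, had 263, 326, 146 and 142 CPM in WT NaCl and 361, 398, 125 and 118 in R882H NaCl, a difference of 1.33. Atp5a1 had 1353, 1132, 1153 and 1093 CPM in WT NaCl and 965, 1613, 1080 and 1088 in R882H NaCl, a difference of 0.17. The first 2 genes separated the libraries by number without overlap, while Atp5a1 overlapped. Sdha was the single gene with a lower mean in libraries 1 and 2: it had 535, 447, 617 and 574 CPM in WT NaCl and 381, 673, 571 and 607 in R882H NaCl, a difference of −0.25.

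By role, the subunits grouped here as core or catalytic in complexes I, II and III had a smaller median difference between the library numbers. The comparison is with the other subunits of the same complex. In complex I the 7 core subunits had a median difference of 0.51 and the 29 accessory subunits 0.97. Coding lengths ran from 636 to 2181 bases in this core. In the accessory subunits with a principal transcript they ran from 210 to 567, except 1065 in Ndufa10. In complex III the core proteins and the Rieske protein, 3 genes, had 0.31 and the 5 small subunits 1.26. The core proteins Uqcrc1 and Uqcrc2 had 0.31 and 0.29, while the Rieske protein Uqcrfs1 had 0.80. In complex V the F1 head had 0.48 over 5 genes, the peripheral stalk 0.86 over 4, the c-ring 1.09 over 3 and the other membrane subunits 1.31 over 4, and Atp5s, factor B, had 0.10. Complex II had 0.13 for its 2 catalytic subunits and 0.69 for its 2 anchors. The catalytic subunits were far apart, Sdha at −0.25 and Sdhb at 0.52, beside 0.65 and 0.73 for the anchors Sdhc and Sdhd. In complexes I, II and III the core or catalytic subunits also tended to have longer coding sequences. Role and length therefore cannot be told apart in these genes. Complex IV has no catalytic subunit encoded in the nucleus; its 11 common isoforms had 1.15, ranging from 0.87 to 1.41, and its 5 tested alternate isoforms and relatives 0.52, ranging from 0.21 to 1.52.

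Shorter genes tended to differ more than longer ones. Across the 78 tested genes with a principal transcript, Spearman's rho between this difference and length was −0.78 for coding length, −0.64 for transcript length and −0.46, over 81 genes, for feature length. Over all 10492 genes with a principal transcript the same values were −0.37, −0.33 and −0.26. The genes share their libraries and are not independent, so these are descriptions. By transcript length, the median of all genes was 0.22 below 500 bases, 0.67 from 500 to 999, 0.35 from 1000 to 1499, 0.03 from 1500 to 1999, −0.13 from 2000 to 2999 and −0.32 from 3000. The subunit genes had 1.30 (6 genes), 1.10 (42), 0.75 (12), 0.50 (10), 0.19 (4) and 0.75 (4) in the same bins. The order was thus broken by the shortest bin in all genes and by the longest in the subunit genes, and 5 of the 6 bins held under 20 subunit genes. The 4 subunit genes of the longest bin have coding lengths of only 315 to 507 bases. Whether their long annotated transcripts are the ones made in these cells was not tested. In each bin the median of the subunit genes lay above that of all genes, which is no test either, since these genes served to choose the division.

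**Figure D3:**
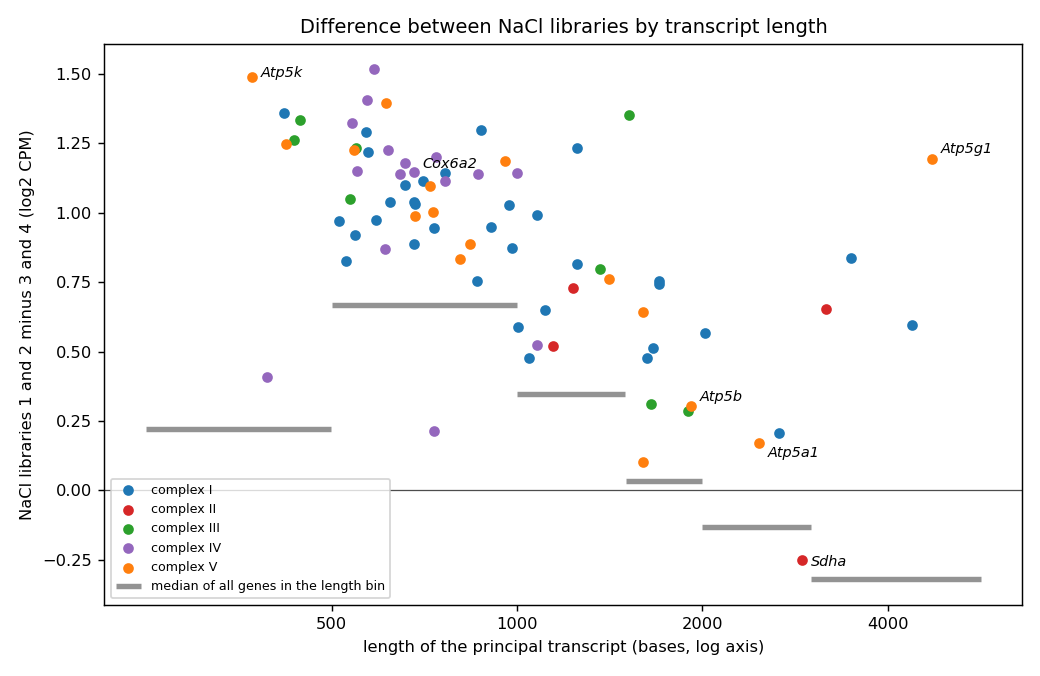
Difference in mean log2 CPM between NaCl libraries numbered 1 and 2 and those numbered 3 and 4 against the length of the principal transcript (log axis), for 78 subunit genes coloured by complex, with grey bars for the median of all genes in each length bin. Most points lie above the bars; Sdha is the single gene below 0, and Atp5g1 has a long principal transcript and a difference of 1.19.

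Other gene groups moved with the subunit genes across these libraries. The median difference was 1.11 for 76 cytosolic ribosomal proteins, 1.42 for the 13 mitochondrially encoded subunits, 0.69 for 77 mitochondrial ribosomal proteins and 2.19 for 8 erythroid markers. It was 0.19 for 16 genes of the tricarboxylic acid cycle and pyruvate dehydrogenase, which feed electrons to the chain, −0.31 for 14 regulators of mitochondrial gene expression and −0.85 for 8 LSK markers. Summed CPM of the cytosolic ribosomal proteins was 35732, 45321, 22029 and 25148 in WT NaCl and 50019, 47525, 20515 and 19872 in R882H NaCl. That of the erythroid markers was 405, 727, 357 and 398 in WT NaCl and 1648, 5831, 191 and 162 in R882H NaCl. The part of cell composition, RNA quality, transcript length and library preparation in these differences was not tested.

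The subunits made in the mitochondrion did not track the nuclear ones at a fixed ratio. Nuclear subunit CPM divided by mitochondrially encoded CPM was 5.76, 4.13, 4.98 and 4.87 in WT NaCl, 2.71, 4.82 and 4.53 in WT AZA, 2.02, 4.56, 4.76 and 5.75 in R882H NaCl, and 5.84, 6.87, 6.08, 5.52 and 4.59 in R882H AZA. The 2 low values were WT AZA library 1 and R882H NaCl library 1. In WT AZA library 1 the cytosolic ribosomal proteins summed to 48990 CPM although the nuclear subunits summed to only 15708, and it gave the lowest CPM for 11 of the 81 subunit genes.

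The comparisons between groups were tested with edgeR's quasi-likelihood test over all 18341 genes and all 16 libraries, with Benjamini-Hochberg adjustment over all genes and a call at an adjusted p under 0.05. The labels do not say that the libraries of a group are separate animals, so the p-values measure only the spread between these libraries. Differences are fitted log2 values. The comparisons share groups and are not independent of each other.

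The first comparison asks whether azacitidine changed the subunit genes in R882H cells. Of 81 genes, 77 had a lower and 4 a higher fitted level with azacitidine, where 44.3% of all genes had a higher one, and the median difference was −0.34 where that of all genes was −0.04. None was called by edgeR, against 0.00545% of all genes, and 1 had an unadjusted p under 0.05, against 6.69% of all genes; DESeq2 and limma-voom called 0 as well. By complex the median was −0.31 in complex I, −0.12 in complex II, −0.47 in complex III, −0.44 in complex IV and −0.35 in complex V. No gene separated the groups without overlap, against 0.485% of all genes in the lower and 1.09% in the higher direction.

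Cox4i2 had 1.68, 0.822, 0.957 and 1.04 CPM in R882H NaCl and 0.490, 0.897, 0.565, 0.749 and 0.346 in R882H AZA. The groups overlapped at a very low level. Its fitted difference was −0.88 (SE 0.35), with an unadjusted p of 0.0223 and an adjusted p of 0.652 by edgeR. The other genes with the lowest p in their complexes were Ndufa12 (−0.49) and Ndufa5 (−0.65), accessory subunits of complex I, Sdhd (−0.35) and Sdhc (−0.18), the small subunit Uqcr11 (−0.64) and the Rieske protein Uqcrfs1 (−0.42), Cox6b2 (−0.77), and Atp5g1 (−0.64) with the membrane subunit Atp5mpl (−0.65). Their adjusted p ranged from 0.764 to 0.886. The 6 named core subunits of complex I lay between −0.33 (Ndufs7) and −0.03 (Ndufs8), and Atp5a1 and Atp5b were at −0.06 and −0.09. The 11 common isoforms of complex IV lay between −0.61 (Cox6a1) and −0.11 (Ndufa4), their alternate isoforms between −0.88 (Cox4i2) and 0.43 (Cox7a1), and the c-ring genes between −0.64 (Atp5g1) and −0.39 (Atp5g2). Sdha stood at 0.01 and the core protein Uqcrc1 at −0.07.

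The R882H NaCl libraries set the size of this difference. Without R882H NaCl library 2, the one rich in erythroid markers, the median was −0.11; without library 1 it was −0.20, and without library 3 or 4 it was −0.52 in both cases. The 8 erythroid markers, all counted in every library, summed to 162 to 5831 CPM in R882H NaCl and 313 to 533 in R882H AZA and had a median difference of −1.88. The 13 mitochondrially encoded subunits had a median of −1.33. The cytosolic ribosomal proteins were below 0 in 76 of 76 genes (median −0.52) and the mitochondrial ribosomal proteins in 73 of 77 (−0.21). None of these genes was called. At an unadjusted p under 0.05 by edgeR were 12 mitochondrially encoded subunits and 7 erythroid markers, against 6.69% of all genes. So were 2 cytosolic and 2 mitochondrial ribosomal proteins. The part of these groups in the result was not tested.

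The second comparison is the same for WT cells. Here 60 genes had a higher and 21 a lower fitted level with azacitidine, where 51.8% of all genes had a higher one, and the median difference was 0.07 where that of all genes was 0.01. None was called, against 0% of all genes, and none had an unadjusted p under 0.05, against 6.02% of all genes; DESeq2 and limma-voom also called 0. The genes with the lowest p were Ndufa6 (0.35) and Ndufa9 (−0.20) in complex I, Sdha (−0.23) and Sdhb (−0.09) in complex II, the core proteins Uqcrc1 (−0.21) and Uqcrc2 (−0.14) in complex III, Cox7a1 (0.83) and Cox6b2 (0.56) in complex IV, and Atp5g2 (0.33) and Atp5l (0.33) in complex V. The adjusted p of these ranged from 0.875 to 0.974. The named core subunits of complex I lay between −0.08 and 0.04 and the 11 common complex IV isoforms between 0.03 (Ndufa4) and 0.24 (Cox6c). The alternate isoforms lay further out, between −0.58 (Cox6a2) and 0.83 (Cox7a1), and the c-ring genes between 0.02 (Atp5g1) and 0.33 (Atp5g2). Of the alternate isoforms, Cox7a1 and Cox4i2 were at a very low level, with 579 and 651 counts in all 16 libraries together. Atp5a1 and Atp5b were at −0.07 and −0.11.

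The 3 WT AZA libraries were themselves far apart. Atp5l had 108, 144, 61.6 and 66.0 CPM in WT NaCl and 117, 140 and 100.3 in WT AZA, so the groups overlapped. The median over the 81 genes was −0.13 without WT AZA library 2, and −0.05 without WT NaCl library 3 or 4, so its sign rested on single libraries. The cytosolic ribosomal proteins were above 0 in 76 of 76 genes (median 0.39) and the mitochondrially encoded subunits in 13 of 13 (0.57), and the B and plasma cell markers were below 0 in 6 of 6 (−0.54); none was called, and their part was not tested. No gene separated the groups, against 2.94% of all genes in the higher and 2.79% in the lower direction.

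Between genotypes under NaCl, 53 subunit genes had a higher and 28 a lower fitted level in R882H, where 54.2% of all genes had a higher one, with a median of 0.05 where that of all genes was 0.03. None was called, against 0.00545% of all genes, none had an unadjusted p under 0.05, against 5.59%, and DESeq2 and limma-voom called 0. The 8 genes of complex III were all above 0, with a median of 0.16. Cox6a2, the muscle form, had 19.7, 23.7, 7.44 and 4.96 CPM in WT NaCl and 15.1, 2.11, 3.85 and 4.29 in R882H NaCl, and the groups overlapped. Its fitted difference of −1.14 (SE 0.55) was the largest in size, with an unadjusted p of 0.0525 and an adjusted p of 0.894 by edgeR. The others with the lowest p were Ndufa12 (0.43) and Ndufs1 (0.27), Sdhd (0.18) and Sdha (0.04), Uqcrfs1 (0.21) and Uqcrc2 (0.10), Ndufa4 (−0.42), and Atp5s (−0.18) and Atp5g1 (0.35), with adjusted p from 0.960 to 0.999. The alternate isoforms spread from Cox6a2 to Cox6b2 (0.54), the common ones from Ndufa4 to Cox6a1 (0.20), and Atp5b was at 0.09. The median turned to −0.18 without R882H NaCl library 2, −0.06 without library 1, −0.07 without WT NaCl library 3 and −0.06 without WT NaCl library 4. The fitted difference was above 0 for 8 of 8 erythroid markers (median 1.57) and 7 of 7 T and NK cell markers (1.85). It was also above 0 for 13 of 13 mitochondrially encoded subunits (0.60). None was called. At an unadjusted p under 0.05 by edgeR were 4 erythroid and 3 T and NK cell markers, against 5.59% of all genes. No mitochondrially encoded subunit was. The part of these groups was not tested. No gene separated the groups, against 0.878% of all genes in the higher and 1.09% in the lower direction.

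Between genotypes under azacitidine, 73 of 81 subunit genes had a lower fitted level in R882H and 8 a higher, where 47.9% of all genes had a higher one. The median was −0.42 where that of all genes was −0.02. None was called, against 0.00545% of all genes, 1 had an unadjusted p under 0.05, against 9.34%, and DESeq2 and limma-voom called 0. The medians were −0.36 in complex I, −0.05 in complex II, −0.48 in complex III, −0.55 in complex IV and −0.36 in complex V, and the 16 tested genes of complex IV were all below 0. This comparison rested on 3 WT libraries, and the median was −0.22 without WT AZA library 2.

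In 10 of the 81 genes, or 12.3%, all 5 R882H AZA libraries lay below all 3 WT AZA libraries, which held for 5.66% of all genes; none lay wholly above, where 5.05% of all genes did. The 10 were Ndufb2, Ndufb3 and Ndufs4 in complex I, Cox5b, Cox6b2, Cox7b and Cox8a in complex IV, and Atp5g2, Atp5g3 and Atp5l in complex V. Atp5g2, a gene of the c-ring, had 183, 146 and 116 CPM in WT AZA and 80.7, 102, 79.6, 96.5 and 89.0 in R882H AZA. Its difference was −0.73 (SE 0.30), with an unadjusted p of 0.0252 and an adjusted p of 0.533 by edgeR. Cox6b2 had 126, 120 and 80.6 CPM in WT AZA and 55.4, 71.5, 68.8, 60.7 and 57.6 in R882H AZA, a fitted difference of −0.79 (SE 0.44).

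The other genes with the lowest p were Ndufa6 (−0.61) and Ndufb2 (−0.44), Sdha (0.28) and Sdhc (−0.18), Uqcrh (−0.63), a small acidic subunit, and Uqcrb (−0.48), Cox4i2 (−0.77) and Ndufa4 (−0.56), and Atp5e (−0.67), the epsilon subunit of the F1 head, with adjusted p from 0.535 to 0.770. Atp5a1 and Atp5b were at 0.02 and 0.11 and the named core subunits of complex I lay between −0.30 (Ndufv2) and 0.17 (Ndufs1). The 11 common complex IV isoforms lay between −0.64 (Cox6c) and −0.42 (Cox5b), and the core and Rieske proteins of complex III between −0.28 (Uqcrfs1) and 0.15 (Uqcrc1). The 76 cytosolic ribosomal proteins had a median of −0.77 and the 13 mitochondrially encoded subunits −1.15. Of the cell markers, 7 of 8 LSK markers were above 0 with a median of 0.59, 6 of 6 B and plasma cell markers were above 0 with 0.80, and 5 of 8 erythroid markers were below 0 with −0.32. None of these genes was called. At an unadjusted p under 0.05 by edgeR were 51 cytosolic ribosomal proteins, 9 mitochondrially encoded subunits and 1 erythroid marker, against 9.34% of all genes. None of the LSK or B and plasma cell markers was. The part of these groups in the result was not tested.

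**Figure D4:**
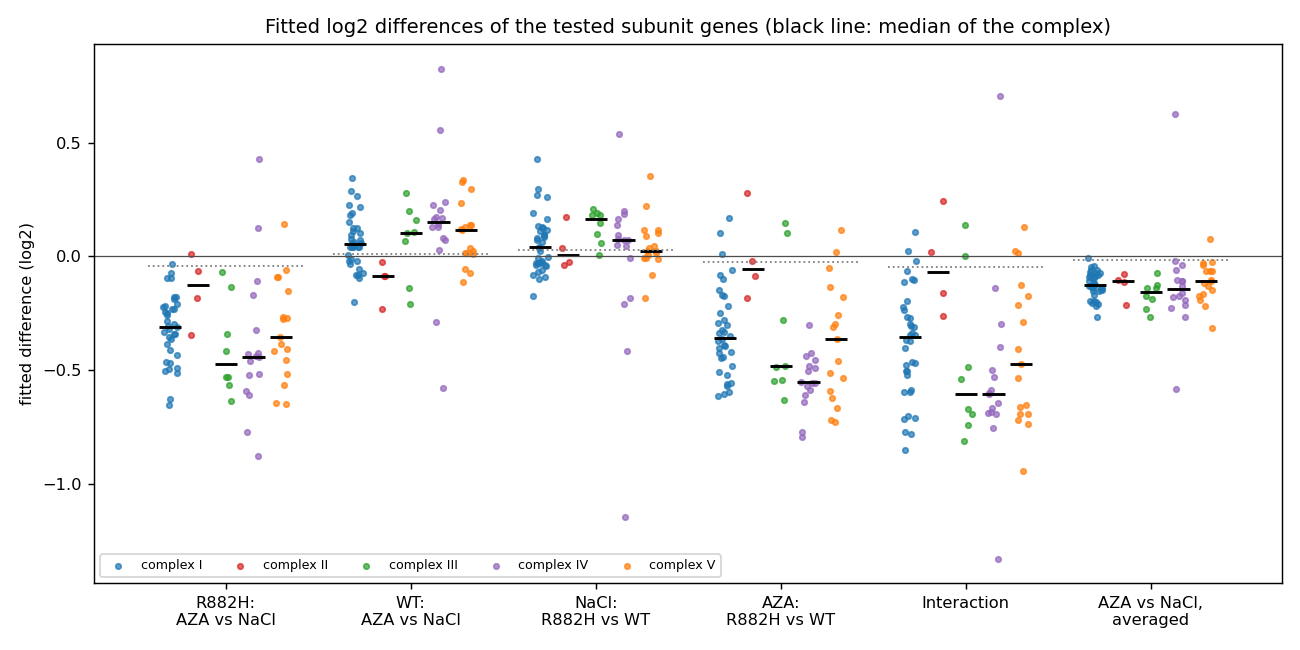
Fitted log2 differences of the 81 tested subunit genes in 6 comparisons, with 1 point per gene coloured by complex, a black line for each complex median and a dotted line for the median of all genes tested. Points lie mainly below 0 for R882H with azacitidine against NaCl, for R882H against WT under azacitidine and for the interaction, with complex II nearest 0; none of the points was called.

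The interaction term asks whether the azacitidine difference itself differed between genotypes. It was negative for 71 genes and positive for 10, where 46% of all genes had a positive one, with a median of −0.47 where that of all genes was −0.05. None was called, against 0% of all genes, 1 had an unadjusted p under 0.05, against 6.07%, and DESeq2 and limma-voom called 0. Cox6b2 had 86.4, 112, 43.6 and 53.6 CPM in WT NaCl and 124, 222, 41.4 and 41.4 in R882H NaCl, beside the treated values above. Its interaction was −1.33 (SE 0.62), with an unadjusted p of 0.0481 and an adjusted p of 0.763 by edgeR. The others with the lowest p were Ndufa6 (−0.71) and Ndufs6 (−0.85), Sdha (0.24) and Sdhd (−0.26), Uqcrh (−0.81) and Uqcr11 (−0.74), Cox7c (−0.76), and Atp5g2 (−0.72) and Atp5mpl (−0.94), with adjusted p from 0.763 to 0.865. Atp5a1 and Atp5b had interactions of 0.02 and 0.02, the c-ring genes lay between −0.72 (Atp5g2) and −0.65 (Atp5g3), and Cox6a2 stood at 0.71. The median ranged from −0.64 to −0.22 when single libraries were left out, the latter without R882H NaCl library 2, and it was −0.52 with only the libraries numbered 1 and 2 and −0.08 with only those numbered 3 to 5. The interaction was negative for 8 of 8 erythroid markers (median −2.03), 6 of 7 T and NK cell markers (−3.09), 13 of 13 mitochondrially encoded subunits (−1.87) and 76 of 76 cytosolic ribosomal proteins (−0.88), and positive for 8 of 8 LSK markers (0.54) and 6 of 6 B and plasma cell markers (0.85). None of these was called. At an unadjusted p under 0.05 by edgeR were 12 mitochondrially encoded subunits and 21 cytosolic ribosomal proteins, against 6.07% of all genes. So were 4 T and NK cell markers and 2 erythroid markers, but none of the LSK or B and plasma cell markers. The part of these groups in the result was not tested.

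Averaged over genotypes, azacitidine gave a lower fitted level for 79 genes and a higher one for 2, where 46.5% of all genes had a higher one, with a median of only −0.13 where that of all genes was −0.02. None was called, against 0.0218% of all genes, 1 had an unadjusted p under 0.05, against 6.85%, and DESeq2 and limma-voom called 0. That gene was again Cox4i2 at −0.58 (SE 0.26), with an unadjusted p of 0.0422 and an adjusted p of 0.707 by edgeR. Cox7a1, at 0.334 to 1.68 CPM in single libraries, had the highest difference, 0.63 (SE 0.32). The others with the lowest p were Ndufs1 (−0.14), Ndufb5 (−0.21), Sdhd (−0.22), Sdha (−0.11), Uqcrc2 (−0.14), Uqcr11 (−0.26), Atp5g1 (−0.31) and Atp5g3 (−0.19), with adjusted p from 0.993 to 0.999. The common complex IV isoforms lay between −0.26 (Cox6a1) and −0.04 (Ndufa4). The median was −0.01 without R882H NaCl library 2. The erythroid markers were below 0 in 8 of 8 genes (median −1.05) and the T and NK cell markers in 7 of 7 (−1.07). None was called. At an unadjusted p under 0.05 by edgeR were 4 erythroid markers and 1 T and NK cell marker, against 6.85% of all genes. The part of these markers was not tested.

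Because NaCl libraries differed by number, the azacitidine comparison was also fitted within the libraries numbered 1 and 2 and within those numbered 3 to 5. The division was made on the NaCl levels of these same genes, and the treated libraries did not divide by number, so the choice of libraries bears directly on the direction found in each set. The values are a description, and the calls are no test of azacitidine. Within libraries 1 and 2 the median over 81 genes was −0.71 in R882H, −0.20 in WT and −0.46 averaged over genotypes. None passed the threshold in R882H, where 0.207% of all genes did in the lower and 0.0816% in the higher direction, nor in WT or in the average, where 0% did.

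Within libraries 3 to 5 the median over the 82 genes that passed the filter there was 0.27 in R882H, 0.37 in WT and 0.31 averaged over genotypes. In the average 33 genes were past the threshold in the higher direction, beside 1.82% of all genes, and none in the lower, beside 2.75%. In R882H 1 was, Atp5l, in the higher direction, beside 0.277% of all genes in the higher and 0.963% in the lower, and in WT none was, beside 0.00532% and 0%. Nothing is read from these counts. WT AZA gave only 1 library to this set, so its spread was taken from the other groups, and the set was not fitted with further libraries left out.

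Ndufa1, an accessory subunit of complex I, had 70.9 and 69.0 CPM in WT NaCl libraries 3 and 4 and 57.9 and 59.9 in R882H NaCl libraries 3 and 4. Its treated values there were 119 in WT AZA library 3 and 83.2, 97.0 and 75.9 in R882H AZA libraries 3 to 5, each above every NaCl value. In libraries 1 and 2 it had 133 and 167 in WT NaCl, 174 and 190 in R882H NaCl, 113 and 171 in WT AZA and 74.8 and 122 in R882H AZA, where the treated and NaCl values overlapped in WT and not in R882H. The averaged difference of Ndufa1 was −0.49 in libraries 1 and 2 and 0.64 in libraries 3 to 5. That of Atp5l, a membrane subunit of the ATP synthase, was −0.47 and 0.57.

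**Figure D5:**
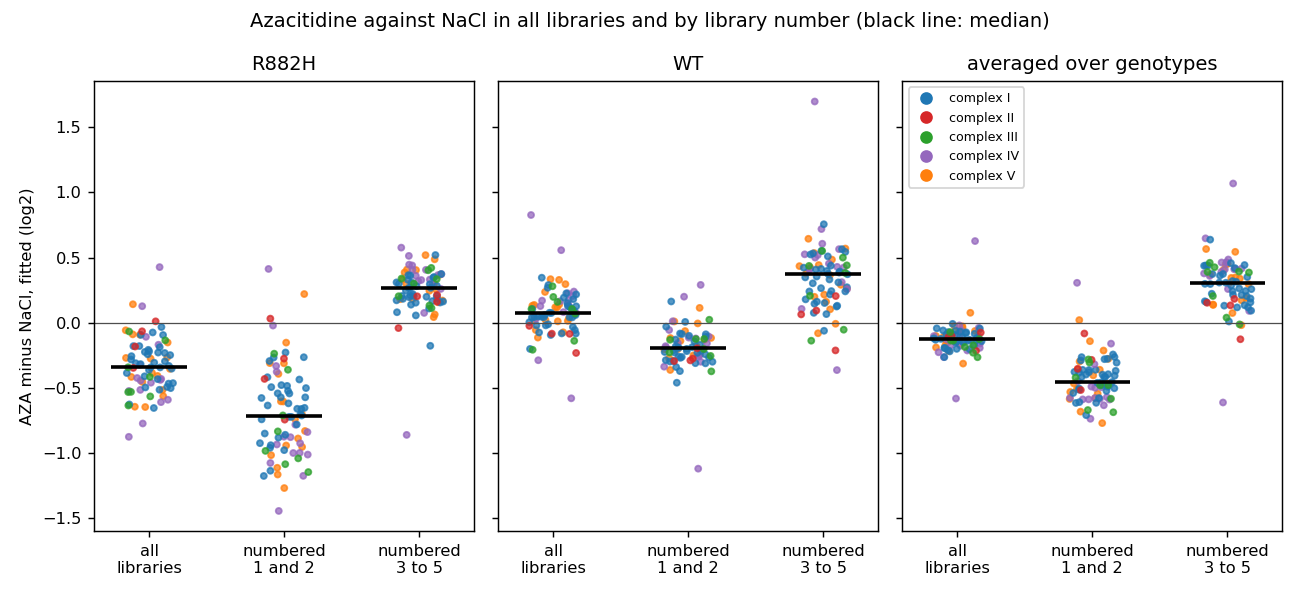
Fitted azacitidine minus NaCl differences (log2) of the subunit genes in R882H, in WT and averaged over genotypes, using all libraries, those numbered 1 and 2, or those numbered 3 to 5, with 1 point per gene coloured by complex and a black line at the median. In each panel the median lies below 0 for libraries 1 and 2 and above 0 for libraries 3 to 5.

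Cytosolic ribosomal proteins also had opposite signs, with a median averaged over genotypes of −0.41 in libraries 1 and 2 and 0.36 in libraries 3 to 5, and so did mitochondrial ribosomal proteins, at −0.36 and 0.22, and mitochondrially encoded subunits, at −0.86 and 0.28.

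With azacitidine in R882H, the genes that build and serve the complexes had medians nearer 0 than the subunit genes. None of 14 complex I assembly factors, 4 of complex II, 6 of complex III, 19 of complex IV and 4 of complex V was called, and their medians were −0.12, −0.11, −0.07, −0.17 and −0.03. At an unadjusted p under 0.05 there was 1, among those of complex IV. None of 15 genes for ubiquinone synthesis, cytochrome c, electron transfer flavoprotein and cytochrome c1 was called, with a median of −0.11, nor any of 14 regulators, among them the transcription factors Nrf1 and Gabpa and the coactivators Ppargc1a and Ppargc1b, with a median of −0.04. None of 16 tricarboxylic acid cycle genes was called, with a median of −0.05. In WT this order held only in part, beside a median of 0.075 for the subunit genes. The assembly factors of complexes I to IV were nearer 0, at −0.060, 0.066, 0.020 and 0.039. Further from 0 were the complex V assembly factors (−0.18), the tricarboxylic acid cycle (−0.13), the electron carriers (−0.12) and the regulators (−0.10). In the other comparisons none of these lists held a call either.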

How the data were processed

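RNA-seq of 16 sorted LSK libraries was analysed from the files the authors deposited: raw counts per gene and FPKM values, with a length for each feature. Per the submitters' processing notes, HISAT2 2.0.5, featureCounts 1.6.2 and edgeR 3.26.6 were used with GRCm38 and mm10. Strand and the treatment of multiply mapped reads are not given in the sources used here. The deposited FPKM values were found to equal count over length over a single library size per library. Per the labels' protocols, the cDNA was made and amplified from small RNA amounts (SMARTer Ultra Low), after a RIN check.

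Counts on gene rows were fitted with edgeR 4.0.16 (R 4.3.3): TMM scaling, filterByExpr, a group model over all 16 libraries, the quasi-likelihood test, Benjamini-Hochberg adjustment over 18341 genes and a call at 0.05. Repeat rows stayed out of library sizes. CPM use TMM sizes, and log2 CPM a prior count of 2. The biological coefficient of variation was 40.7%. DESeq2 1.42.0 and limma 3.58.1 (voom), other scalings, no low-count filter, the compared groups alone, a replicate block and each library left out were alternatives; tables used Python 3.11.15, pandas 2.3.3 and scipy 1.17.1. The fitting code was tested on simulated data. Lengths came from GENCODE M21 and promoters from RefSeq. The principal transcript of a gene was its top-ranked APPRIS transcript, and among several the one with the longest coding sequence. No 2 libraries of a group were copies: the lowest chi-square per gene over 25 pairs was 29.8.

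The numbers 1 to 4 are shared between groups. For same-numbered libraries of WT NaCl and R882H NaCl, deviations from the group means had correlations of 0.10, 0.34, 0.34 and 0.32. The other pairs of groups ranged from −0.12 to 0.34. Libraries of unlike number were not compared, so these values cannot show whether sharing a number matters. The labels do not say that a number marks a shared animal or day.

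The subunit genes and the other lists were chosen with earlier results of these data known. Named were, by rule, the 2 genes of each complex with the lowest p in each comparison, a fixed set of core subunits and isoforms, and the extremes of FPKM and of spread in each complex; 1 gene so named is not reported here. The division by library number, the role groups, lengths, motifs and the genes named from the division were chosen after values were seen, and 2 of the motifs were shortened by 1 base after a first search.

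Of the 84 genes, 30 share exon bases with another gene, and 3 share over 20%: Atp5o (47.9%), Ndufb6 (39.0%, with Smim27) and Ndufa13 (30.0%, with Tssk6). Counts of these, and of genes with near-identical pseudogenes, are uncertain to that extent.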

Additional observations from a re-analysis of the deposited data

Results flagged for a closer look

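In 111 groups of 4 or 5 libraries, the highest or lowest library was checked for a gap to the others that was large for the group's range. Such a gap was found in 11. Chance gives about 1 in 20 for a single check, but these checks share libraries and genes. The count is therefore no test against chance. R882H NaCl library 2, the library with the most erythroid marker counts, gave 5 of them, all high. There complex II summed to 2042 CPM against 1202 to 1268 in the other 3 libraries. Ndufa9, an accessory subunit of complex I, had 278 CPM against 166 to 174, and the core subunit Ndufs1 had 249 against 134 to 138. The complex III core proteins Uqcrc1 and Uqcrc2 had 1026 against 532 to 579 and 247 against 140 to 147. These are among the genes that otherwise varied least between libraries.

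In R882H NaCl library 1 the muscle isoform Cox6a2 had 15.1 CPM against 2.11 to 4.29 in the others. In WT NaCl, Uqcrc2 had 183 CPM in library 1 against 147 to 152, and Cox4i2 had 1.57 in library 2 against 1.15 to 1.22. In R882H AZA library 2, Ndufa6 was high at 104 CPM against 72.7 to 81.6 and Sdha low at 491 against 566 to 588; in library 3 Uqcrc2 had 161 CPM against 151 to 153.

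Of the 13 rows that match the symbol rule under another biotype and were in no comparison, 8 had more than 3 counts in every library. Ndufb1-ps, which the annotation used here gives as a bidirectional promoter lncRNA, had a mean of 106 CPM over 16 libraries, from 44.7 to 208. That is in the range of the subunit genes themselves. No row matched the symbol Ndufb1 without the suffix, and whether Ndufb1-ps stands for a subunit gene was not tested. Among processed pseudogenes the means were 6.93 CPM for Ndufab1-ps, 5.27 for Cox6c2, 2.89 for Ndufs6b and 1.84 for Atp5k-ps2. They were 1.05 for Ndufb4c, 1.03 for Atp5l2-ps and 0.451 for Atp5l-ps1. Whether the counts of these processed pseudogenes are reads of the parent genes was not tested.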

How the results depend on the processing

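In each of the 6 comparisons 0 subunit genes were called under every scaling, filter and tool chosen at the outset, among them DESeq2, limma-voom, the replicate block and each of 16 libraries left out. The medians with the replicate block were −0.21 for azacitidine in R882H, 0.02 in WT, 0.02 between genotypes under NaCl, −0.24 under azacitidine, −0.27 for the interaction and −0.09 averaged; the block changed no call. Leaving out single libraries gave medians from −0.52 to −0.11, −0.13 to 0.24, −0.18 to 0.24, −0.50 to −0.22, −0.64 to −0.22 and −0.23 to −0.01 in the same order. limma-voom turned the median between genotypes under NaCl to −0.01. With only libraries numbered 3 to 5, an alternative chosen after seeing the data, 1 gene was called in R882H (median 0.27) and 33 averaged over genotypes (median 0.31); since the division used the NaCl levels of these genes, these calls are no test. The cause of the other shifts was not tested.

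Of 60 results for single named genes, none of them called, 27 changed sign somewhere, none of these under the other scalings, tools, filter or block. With only libraries 3 to 5, azacitidine in R882H gave 0.35 for Ndufa5, 0.20 for Sdhd, 0.16 for Sdhc, 0.33 for Uqcr11, 0.20 for Uqcrfs1, 0.58 for Cox6b2, 0.40 for Atp5g1 and 0.37 for Atp5mpl. In WT it gave 0.0758 for Ndufa9 and 0.0935 for Sdhb. Averaged, it gave 0.0095 for Ndufs1, 0.21 for Ndufb5, 0.13 for Sdhd, 0.39 for Uqcr11, 0.35 for Atp5g1 and 0.34 for Atp5g3, and the interaction of Sdhd was 0.14. Between genotypes under NaCl it gave −0.0318 for Ndufs1, −0.0899 for Sdhd, −0.0109 for Sdha, −0.15 for Uqcrfs1, −0.0685 for Uqcrc2, 0.0094 for Atp5s and −0.23 for Atp5g1.

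Without R882H NaCl library 1 and WT AZA library 1, also chosen after seeing the data, the interaction of Sdha was −0.0542, and azacitidine in WT gave 0.0857 for Sdhb and 0.0017 for Uqcrc1. With single libraries left out, azacitidine in R882H ranged from −0.50 to 0.0322 for Sdhd and −0.31 to 0.0254 for Sdhc. In WT it ranged from −0.34 to 0.0983 for Sdhb and −0.46 to 0.0141 for Uqcrc1, and averaged from −0.18 to 0.0011 for Ndufs1. The interaction of Sdhd ranged from −0.43 to 0.12, and Sdhc between genotypes under azacitidine from −0.36 to 0.0845. Under NaCl the ranges were −0.0011 to 0.36 for Ndufs1, −0.20 to 0.33 for Sdhd, −0.0638 to 0.19 for Sdha, −0.13 to 0.38 for Uqcrfs1, −0.14 to 0.18 for Uqcrc2 and −0.17 to 0.59 for Atp5g1.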
